A study of Mus musculus with 56 samples.

Results

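The Fc gamma receptor genes of the mouse were followed in monocytes and macrophages from 4 injured tissues with and without depletion of regulatory T cells. The members are the 5 genes whose symbol in both deposited tables is Fcgr1, Fcgr3, Fcgr4, Fcer1g or Fcgr2b, out of 52636 genes in the heart table and 57010 genes in the table of bone, muscle and skin. The rule uses gene names only. All 5 passed the filter on low counts in every fit. The Treg-depleted arm consisted of Foxp3(DTR/GFP) mice given diphtheria toxin (FDG+DT), and the control arm of wild-type C57BL/6J mice given the same toxin (WT+DT), so that genotype and depletion cannot be told apart and every mouse had toxin. The mice were 10 weeks old and received 20 ng/g of toxin into the peritoneum from before the injury onwards, and each mouse carried a single injury. In FDG mice the Foxp3 promoter drives the toxin receptor, so any cell that expresses Foxp3 is a target. The injuries were a myocardial infarction in the heart, a defect of the skull bone, a volumetric loss of muscle and a full-thickness skin punch.

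The 56 libraries form 16 groups. Heart had 3 depleted and 3 control libraries at day 4 and the same at day 7, and muscle had 3 and 3 at each of those days. Bone had 5 depleted and 5 control libraries at day 7 and 3 and 3 at day 10. Skin had 4 depleted and 4 control libraries at day 4 and at day 7. The sample labels give days 7 and 10 for bone, whereas the design text gives days 4 and 7 for all tissues, and the sample labels were followed. The labels do not state whether libraries of a group came from separate mice or from pools, so a p-value here is relative to the variation among libraries only.

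Fc gamma receptors bind the constant part of immunoglobulin G and so let myeloid cells respond to antibody-coated particles and immune complexes. Fcgr1 encodes the high-affinity activating receptor, and Fcgr3 and Fcgr4 encode activating receptors of lower or intermediate affinity. These receptors signal through the common gamma chain, encoded by Fcer1g, whose ITAM motif recruits the kinase Syk. Fcgr2b encodes the inhibitory receptor, which carries its own ITIM motif and recruits phosphatases that dampen the activating signal. In wounds, resident macrophages, recruited monocytes and neutrophils all use members of this family, and interferon gamma is a known inducer of Fcgr1 and Fcgr4, while interleukin 4 is a known inducer of Fcgr2b.

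On GRCm38, Fcgr2b (chr1:170958617-170976547, minus strand), Fcgr4 (chr1:171018920-171029761, plus strand), Fcgr3 (chr1:171051174-171064935, minus strand) and Fcer1g (chr1:171229572-171234365, minus strand) lie within 276 kb of chromosome 1. Fcgr1 lies elsewhere (chr3:96282909-96293969, minus strand). The promoters of Fcgr4, Fcgr1 and Fcgr2b are shown because these genes carry the 3 patterns described here: Fcgr4 was called higher after depletion in 5 of 8 settings, Fcgr1 was lower at the later day, and the depletion effect on Fcgr2b differed between tissues. Each sequence holds 300 bases around the RefSeq start on GRCm38.p6, read 5′ to 3′ along the gene's own strand, at chr1:171018676-171018975 (plus) for Fcgr4, chr3:96293920-96294219 (minus) for Fcgr1 and chr1:170976022-170976321 (minus) for Fcgr2b. Capitals mark the motif matches found.
Fcgr4: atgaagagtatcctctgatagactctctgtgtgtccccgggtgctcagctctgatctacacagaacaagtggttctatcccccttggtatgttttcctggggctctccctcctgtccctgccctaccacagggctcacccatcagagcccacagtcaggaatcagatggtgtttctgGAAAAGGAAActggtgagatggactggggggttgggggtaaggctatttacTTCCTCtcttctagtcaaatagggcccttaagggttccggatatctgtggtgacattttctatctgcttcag
Fcgr1: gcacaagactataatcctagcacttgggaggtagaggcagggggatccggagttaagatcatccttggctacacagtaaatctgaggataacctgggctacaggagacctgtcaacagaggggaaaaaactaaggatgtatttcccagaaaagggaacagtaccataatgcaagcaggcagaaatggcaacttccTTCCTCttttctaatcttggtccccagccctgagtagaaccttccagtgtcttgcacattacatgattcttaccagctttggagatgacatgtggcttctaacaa
Fcgr2b: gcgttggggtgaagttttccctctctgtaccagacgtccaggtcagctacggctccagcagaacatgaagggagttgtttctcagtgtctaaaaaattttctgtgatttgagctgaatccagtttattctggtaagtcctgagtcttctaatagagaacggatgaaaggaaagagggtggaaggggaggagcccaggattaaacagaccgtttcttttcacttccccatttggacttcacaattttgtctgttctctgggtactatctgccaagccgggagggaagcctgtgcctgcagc

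The search covered 2 motifs on both strands, namely a core of the myeloid factor PU.1 (GAGGAA, or TTCCTC on the other strand) and an IRF site (GAAA, any 2 bases, GAAA). The Fcgr4 window held TTCCTC at -22 and GAAAAGGAAA, an IRF site, at -73 from the start. The Fcgr1 window held TTCCTC at -55 and the Fcgr3 window held it at -6, and neither held the IRF site. Fcgr3 had 2 promoter entries, and only the first of them was searched. The Fcer1g and Fcgr2b windows matched neither motif. Of 27025 RefSeq promoter windows of this length, 28.3% held the PU.1 core and 3.49% the IRF site. These matches describe letters only.

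Library totals ranged between 2642452 and 9788811 counts in heart, between 2318268 and 5835113 in bone, between 3439692 and 6397434 in muscle and between 3013776 and 5392932 in skin. Levels below are CPM, counts relative to library size, scaled by TMM within each table, so heart levels and those of the other tissues are not set against each other, and the level of one gene is not set against that of another. Heart columns of day 7 carry no day in their name, so they were matched to that group as the columns without a day. Transcripts of Fcgr3 and Fcgr2b share sequence: 13.4% of the 31-base words of Fcgr3 occur in Fcgr2b, and 5.78% of those of Fcgr2b occur in other genes, among them Fcgr3, Pou2f2 and Gm4117. Their values in the table of bone, muscle and skin were mostly not whole numbers, so reads may have been divided between them, and their separate levels are uncertain to that extent. Fcgr4 shares 1.31% of its words with other genes, and Fcgr1 and Fcer1g share none. Gm38204 lies antisense to Fcgr2b, Gm26110 overlaps Fcgr4 and Mir6546 overlaps Fcgr3 on the same strand.

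The labelled cell type was checked against its markers. Between 12 and 13 of 13 rows for 12 genes of monocytes and macrophages (Itgam is listed in 2 rows of the heart table) were detected in every heart library and all 12 in every other library, with a summed level of 9252 to 36941 CPM. Markers of other cells were present as well, above all neutrophil genes in bone, where S100a8 averaged 4720 CPM over the 16 libraries. All 14 neutrophil markers were detected in each bone library, whereas Ly6g was at 0 in 12 of 16 skin libraries, 8 of 12 muscle libraries and 6 of 12 heart libraries. Neutrophils also carry Fcgr3, Fcgr4 and Fcer1g, and in bulk samples fewer cells of a type and less RNA per cell cannot be told apart.

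Fcgr4 was the member that differed most often between the arms. Its fitted change was positive in all 8 comparisons of depleted with control cells and passed the test in 5 of them, in heart at both days, in bone at both days and in skin at day 7. Adjusted p values are those of edgeR's quasi-likelihood F test with Benjamini-Hochberg adjustment over all genes of the fit, with a threshold of 0.05, and a gene is called when it passes. At day 4 after infarction, Fcgr4 had 309, 308 and 498 CPM in depleted heart libraries, against 206, 147 and 147 CPM in control libraries. At day 7 it had 629, 458 and 452 CPM in depleted heart libraries, against 239, 240.2 and 233 CPM in control libraries. Every depleted heart library was above every control library on its day. The log2 change was 1.16 (SE 0.20, edgeR adjusted p = 0.00137) at day 4 and 1.11 (SE 0.19, edgeR adjusted p = 0.00742) at day 7. Summed neutrophil markers in heart were 682 to 728 CPM in depleted libraries and 619 to 812 CPM in control libraries at day 4, with 0 of 12 tested markers higher and 3 lower, and 404 to 736 CPM in depleted libraries and 194 to 294 CPM in control libraries at day 7, with 4 of 12 higher. Their part in the result was not tested.

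In bone at day 7, Fcgr4 had 60.2, 48.2, 51.3, 54.3 and 24.5 CPM in depleted libraries, against 37.0, 24.6, 23.4, 31.7 and 27.0 CPM in control libraries. The groups overlapped through depleted replicate 5 alone, and the other 4 depleted libraries were above every control library. At day 10 it had 32.9, 38.7 and 60.6 CPM in depleted libraries, against 19.0, 22.0 and 19.1 CPM in control libraries, with no overlap. The log2 change was 0.72 (SE 0.21, edgeR adjusted p = 0.0175) at day 7 and 1.15 (SE 0.29, edgeR adjusted p = 0.01) at day 10. Without depleted replicate 3 the day 10 change was 0.85 and no longer passed (edgeR adjusted p = 0.0793). With the level of the ribosomal RNA gene Rn18s-rs5 as a covariate the change was 0.76 at day 7 and 1.21 at day 10, no smaller than without it, but neither passed (edgeR adjusted p = 0.162 and 0.201). Neutrophil markers moved with this result: their sum was 9052 to 28596 CPM in depleted libraries and 5858 to 13690 CPM in control libraries at day 7, with 6 of 14 higher, and 17718 to 32354 CPM in depleted libraries and 5186 to 9610.2 CPM in control libraries at day 10, with 8 of 14 higher. Rn18s-rs5 itself ranged from 47640 to 103000 CPM in depleted and from 13260 to 84160 CPM in control bone at day 7, and from 63990 to 100100 CPM in depleted and from 16050 to 24000 CPM in control bone at day 10. The part of either in the Fcgr4 result was not tested beyond this covariate.

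In skin at day 7, Fcgr4 had 82.5, 80.1, 62.5 and 72.2 CPM in depleted libraries, against 35.3, 29.3, 41.9 and 54.6 CPM in control libraries. All depleted libraries were above all control libraries, and the log2 change was 0.90 (SE 0.16, edgeR adjusted p = 0.000703). At day 4 it had 109, 98.3, 101 and 92.9 CPM in depleted skin libraries, against 66.2, 77.6, 71.9 and 78.2 CPM in control libraries. These groups did not overlap either, but the change of 0.44 (SE 0.15) did not pass (edgeR adjusted p = 0.121). Summed neutrophil markers in skin at day 7 were 345 to 1914 CPM in depleted libraries and 1118 to 1930.1 CPM in control libraries, and summed mast cell, basophil and eosinophil markers were 186 to 542 CPM in depleted libraries and 66.3 to 130 CPM in control libraries, with 4 of 10 tested markers higher and 3 lower. Their part in the result was not tested.

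In muscle at day 7, Fcgr4 had 91.3, 90.2 and 93.0 CPM in depleted libraries, against 57.8, 62.7 and 72.8 CPM in control libraries. The groups did not overlap, yet the change of 0.51 (SE 0.16) stood just outside the threshold (edgeR adjusted p = 0.0547) and fell inside it with RLE normalization (0.048), with no filter on low counts (0.0397) and in DESeq2 (0.0322). At day 4 it had 144, 93.4 and 147 CPM in depleted and 106, 112 and 117 CPM in control muscle, which overlapped, with a change of 0.20 (SE 0.15, edgeR adjusted p = 0.798). Neutrophil markers summed to 1113 to 2933 CPM in depleted and 198 to 243 CPM in control muscle at day 7, with 6 of 11 tested markers higher. Their part in the result was not tested.

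**Figure D1:**
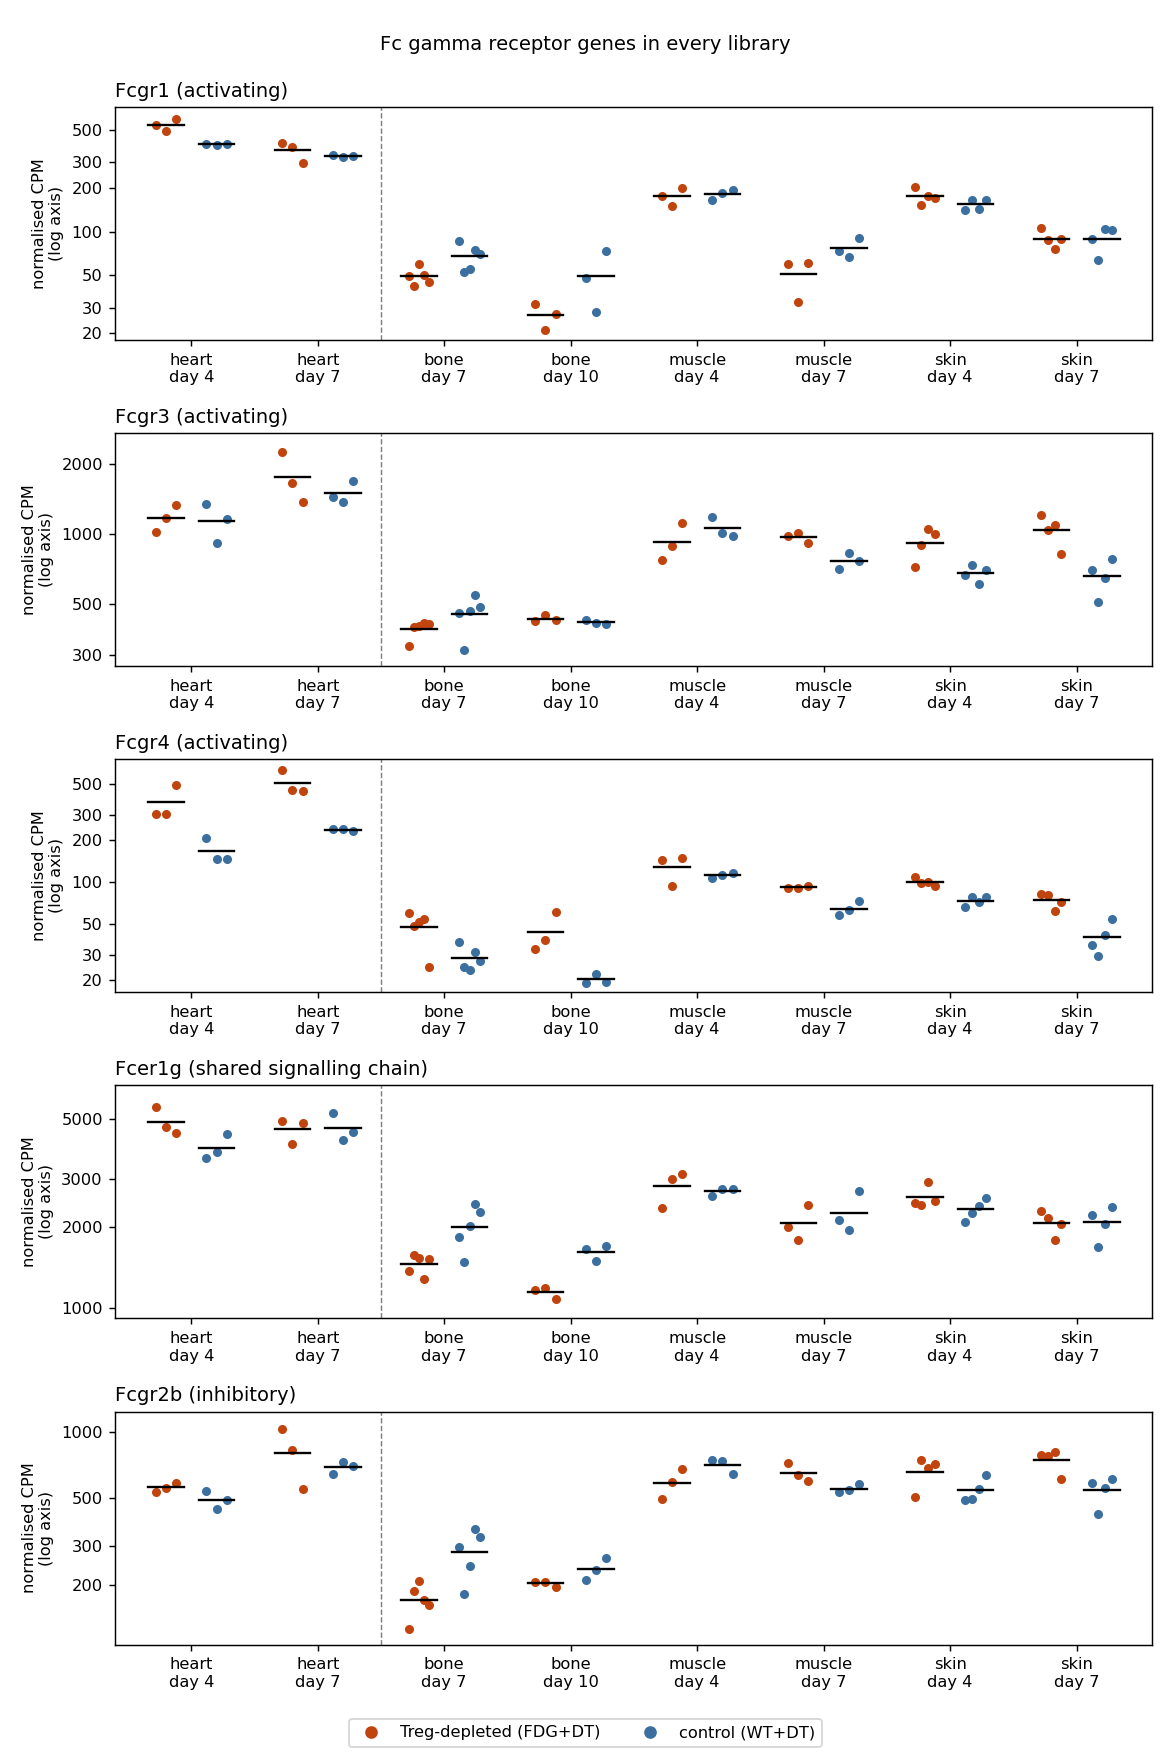
Normalised level of each gene in every library (CPM, log axis), by tissue and day after injury, with Treg-depleted libraries left of control libraries, 1 point per library and a bar at the group mean. The dashed line separates the heart table from the table of the other tissues, which are on different scales; for Fcgr4, depleted libraries lie above all control libraries in 6 of 8 settings, for instance at 452 to 629 CPM against 233 to 240.2 CPM in heart at day 7.

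Fcgr1, the high-affinity receptor, was higher in depleted cells in 1 setting and lower in another. In heart at day 4 it had 544, 488 and 596 CPM in depleted libraries, against 399, 393 and 400.5 CPM in control libraries. Depleted libraries were all above control libraries, and the log2 change was 0.45 (SE 0.12, edgeR adjusted p = 0.0185). This call was lost when any of 5 libraries was left out, depleted F1 or F3 or control W1, W3 or W4, with a change of 0.38 to 0.46 and an adjusted p of 0.0548 to 0.0937. In bone at day 10, Fcgr1 had 31.5, 21.0 and 27.0 CPM in depleted libraries, against 48.2, 28.0 and 73.0 CPM in control libraries. Control replicate 2 lay within the depleted range, and the change was -0.89 (SE 0.27, edgeR adjusted p = 0.028). The call was lost without depleted replicate 2 (-0.78, adjusted p = 0.083), depleted replicate 3 (-0.90, adjusted p = 0.0793) or control replicate 3 (-0.52, adjusted p = 0.21), and with the Rn18s-rs5 covariate (-0.77, adjusted p = 0.404). Of 12 macrophage markers, 5 were lower and 2 higher in this setting, and their part in the result was not tested.

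In muscle at day 7, Fcgr1 had 60.2, 33.1 and 60.4 CPM in depleted libraries, against 73.9, 66.4 and 90.4 CPM in control libraries. The groups did not overlap, and the change of -0.57 (SE 0.19) did not pass (edgeR adjusted p = 0.0774), although it did without the filter on low counts (0.0146). In bone at day 7 the change was -0.47 (SE 0.20, edgeR adjusted p = 0.0909), with 49.4 ± 6.57 CPM in depleted libraries and 67.9 ± 13.7 CPM in control libraries (SD, n = 5 each), and it passed when only the day 7 groups were fitted (-0.49, adjusted p = 0.0317). There, 9 of 12 macrophage markers were lower and 1 higher, and their part was not tested. In the other 4 settings the groups overlapped, and the change lay between -0.06 and 0.18.

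Fcgr3, a low-affinity activating receptor of most myeloid cells, was called in skin at day 7 only. It had 1205, 1041, 1089 and 820.0 CPM in depleted libraries, against 697, 511, 645 and 778 CPM in control libraries. The groups did not overlap, and the change was 0.68 (SE 0.15, edgeR adjusted p = 0.005). In skin at day 4 the change was 0.43 (SE 0.15, edgeR adjusted p = 0.109), with 723, 898, 1049 and 1002 CPM in depleted libraries and 664, 733, 611 and 701 CPM in control libraries, which overlapped through depleted replicate 1 and control replicate 2. In muscle at day 7 it had 981, 1012 and 913 CPM in depleted libraries and 710, 827 and 761 CPM in control libraries, which did not overlap, with a change of 0.34 (SE 0.14, edgeR adjusted p = 0.17). In the other 5 settings the change lay between -0.23 and 0.23 and the groups overlapped.

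Fcer1g, the gamma chain, was called lower in depleted bone at both days. At day 7 it had 1373, 1568, 1537, 1282 and 1522 CPM in depleted libraries, against 1836, 1485, 2012, 2435 and 2265 CPM in control libraries. Control replicate 2 lay within the depleted range, and the change was -0.48 (SE 0.12, edgeR adjusted p = 0.00619). At day 10 it had 1173, 1188 and 1079 CPM in depleted libraries, against 1653, 1497 and 1702 CPM in control libraries, without overlap, and the change was -0.48 (SE 0.16, edgeR adjusted p = 0.037). The day 10 call was lost without depleted replicate 1 (-0.51, adjusted p = 0.0798) or 3 (-0.44, adjusted p = 0.125) and without control replicate 1 (-0.48, adjusted p = 0.0744), 2 (-0.54, adjusted p = 0.0531) or 3 (-0.45, adjusted p = 0.113). With the Rn18s-rs5 covariate the change was -0.65 and did not pass either (adjusted p = 0.202). Macrophage markers moved with this result: 9 of 12 were lower and 1 higher in depleted bone at day 7, where their sum was 10334 to 14823 CPM in depleted libraries and 13432 to 24484 CPM in control libraries, and 5 of 12 were lower and 2 higher at day 10, where it was 9252 to 11766 CPM in depleted libraries and 13269 to 14704 CPM in control libraries. Their part in the result was not tested. In heart at day 4 Fcer1g had 5564, 4695 and 4465 CPM in depleted libraries and 3588, 3776 and 4425 CPM in control libraries, which did not overlap, with a change of 0.32 (SE 0.15, edgeR adjusted p = 0.177) that passed with no filter on low counts (0.35, adjusted p = 0.0331). In the other 5 settings the change lay between -0.13 and 0.14.

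Fcgr2b, the inhibitory receptor, was lower in depleted bone at day 7. It had 126, 187, 208, 170 and 162 CPM in depleted libraries, against 297, 183, 243, 359 and 332 CPM in control libraries, and control replicate 2 again lay within the depleted range. The change was -0.74 (SE 0.16, edgeR adjusted p = 0.0017). It remained past the threshold with each bone library left out in turn and with the Rn18s-rs5 covariate. Macrophage markers moved with this result too: 9 of 12 were lower and 1 higher, with a median change of -1.39. Their part in the result was not tested. At day 10 it had 206, 206 and 196 CPM in depleted and 211, 235 and 265 CPM in control bone, which did not overlap, with a change of -0.21 (SE 0.21, edgeR adjusted p = 0.513). In skin at day 7 the fitted direction was the opposite, and Fcgr2b had 779, 777, 807 and 610.1 CPM in depleted libraries, against 585, 421, 553 and 610.0 CPM in control libraries. The lowest depleted and the highest control library nearly touched. The change of 0.47 (SE 0.14) stood just outside the threshold (edgeR adjusted p = 0.0516) and inside it in DESeq2 (0.0217) and with no filter on low counts (0.0444). The change was 0.24 in muscle at day 7, 0.27 in skin at day 4, 0.19 and 0.22 in heart at days 4 and 7 and -0.28 in muscle at day 4, and none of these passed.

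Counted by setting, 2 of 5 members were called higher and 0 lower in heart at day 4, where 4.25% of all genes tested were called higher and 6.85% lower. In heart at day 7, 1 member was called higher (1.58% of genes higher, 1.56% lower). In bone, 1 member was higher and 2 were lower at day 7 against 11% of genes higher and 12.6% lower, and 1 was higher and 2 lower at day 10 against 8.95% and 8.22%. No member was called in muscle at day 4 (0.0542% of genes higher, 0.101% lower) or day 7 (4.67% higher, 3.92% lower) or in skin at day 4 (2.12% higher, 1.45% lower). In skin at day 7, 2 members were higher (2.95% of genes higher, 3.27% lower). An unadjusted p below 0.05 was reached by 0 members in muscle at day 4, 3 in muscle at day 7 (Fcgr1, Fcgr3 and Fcgr4) and 2 in skin at day 4 (Fcgr3 and Fcgr4), and DESeq2 called 0, 1 and 0 members in these settings. Groups did not overlap for 3 members in heart at day 4 and 1 at day 7, against 29.1% and 24.7% of all genes. They did not overlap for 0 members in bone at day 7 and 3 at day 10, against 15.7% and 35.3% of all genes, and for 0 members in muscle at day 4 and 4 at day 7, against 15% and 23.3%. In skin they did not overlap for 1 member at day 4 and 3 at day 7, against 10.4% and 10.6%. The median change of the 5 members was 0.32 and 0.22 in heart at days 4 and 7, -0.47 and -0.21 in bone at days 7 and 10, -0.06 and 0.24 in muscle and 0.27 and 0.47 in skin at days 4 and 7, and the median over all genes stayed between -0.023 and 0.005.

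**Figure D2:**
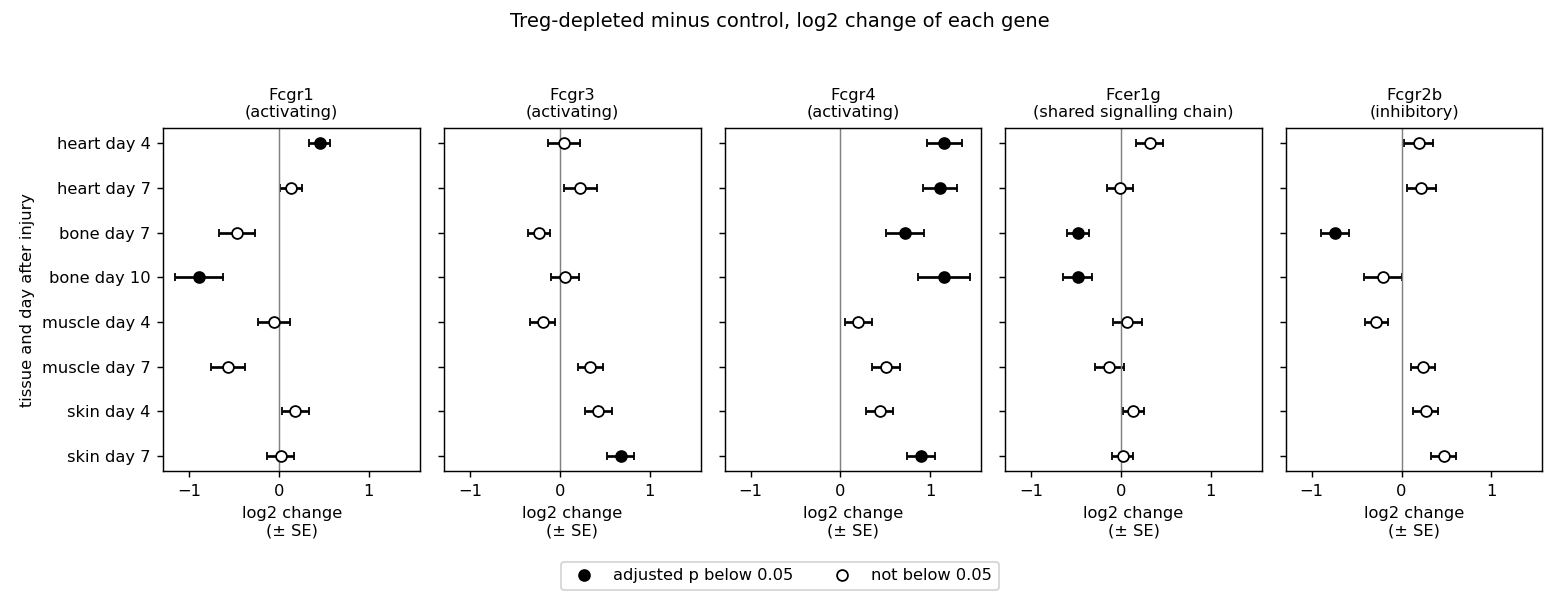
Log2 change of Treg-depleted over control cells for each gene in the 8 settings, with bars of 1 SE and filled points where the edgeR adjusted p was below 0.05. Fcgr4 lies right of 0 in every setting (0.20 to 1.16). In bone on day 7 the other genes lie left of 0: Fcgr1 at -0.47, Fcgr3 at -0.23, Fcer1g at -0.48 and Fcgr2b at -0.74.

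The balance of activating and inhibitory receptors was described by the log2 ratio of each gene's count to that of Fcgr2b in the same library, with 0.5 added to each count. The ratio is read between libraries only, and it was given no test. A lower Fcgr2b count raises each ratio as much as a higher count of the other gene does. The Fcgr4 ratio was higher in depleted cells in all 8 settings by 0.177 to 1.391, and depleted libraries were above all control libraries in 5 of them. In bone at day 7 it was -1.06, -1.96, -2.02, -1.65 and -2.72 in depleted libraries, against -3.00, -2.89, -3.37, -3.50 and -3.61 in control libraries. In that setting the Fcgr4 level changed by 0.72 and the Fcgr2b level by -0.74, and both enter the ratio. In heart at day 4 it was -0.78, -0.85 and -0.23 in depleted libraries, against -1.38, -1.58 and -1.73 in control libraries. The groups overlapped in muscle at day 4 and in skin at both days.

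The Fcgr3 ratio differed less, by -0.139 to 0.51. Depleted libraries were above control libraries in bone at both days and in skin at day 7. In bone at day 7 the mean ratio was 1.21 ± 0.19 in depleted and 0.70 ± 0.16 in control libraries (SD, n = 5 each). The Fcgr3 level itself was not higher there: it changed by -0.23, and the Fcgr2b level by -0.74. The Fcgr1 ratio differed by -0.863 to 0.262, and depleted libraries were below all control libraries in 2 settings. In muscle at day 7 it was -3.71 ± 0.50 in depleted and -2.85 ± 0.18 in control libraries (SD, n = 3 each). In skin at day 7 it was -3.05 ± 0.28 in depleted and -2.61 ± 0.15 in control libraries (SD, n = 4 each). With overlap, its mean was also lower in depleted bone at day 10 (-0.599), skin at day 4 (-0.088) and heart at day 7 (-0.064). It was higher, likewise with overlap, in bone at day 7 (0.262), heart at day 4 (0.252) and muscle at day 4 (0.217). The Fcer1g ratio was below control in bone at day 10 and skin at day 7 and above it in muscle at day 4. Cell markers moved with depletion in bone. At day 7, 6 of 14 neutrophil markers were higher, and 9 of 12 macrophage markers were lower and 1 higher. At day 10, 8 of 14 neutrophil markers were higher, and 5 of 12 macrophage markers were lower and 2 higher. Neutrophil markers also moved outside bone where the Fcgr4 ratio separated the arms. In heart 0 of 12 were higher and 3 lower at day 4, and 4 of 12 higher at day 7. In muscle at day 7, 6 of 11 were higher. The part of these markers in the ratios was not tested. The Fcgr3 ratio also carries the uncertainty from the sequence shared with Fcgr2b. 

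**Figure D3:**
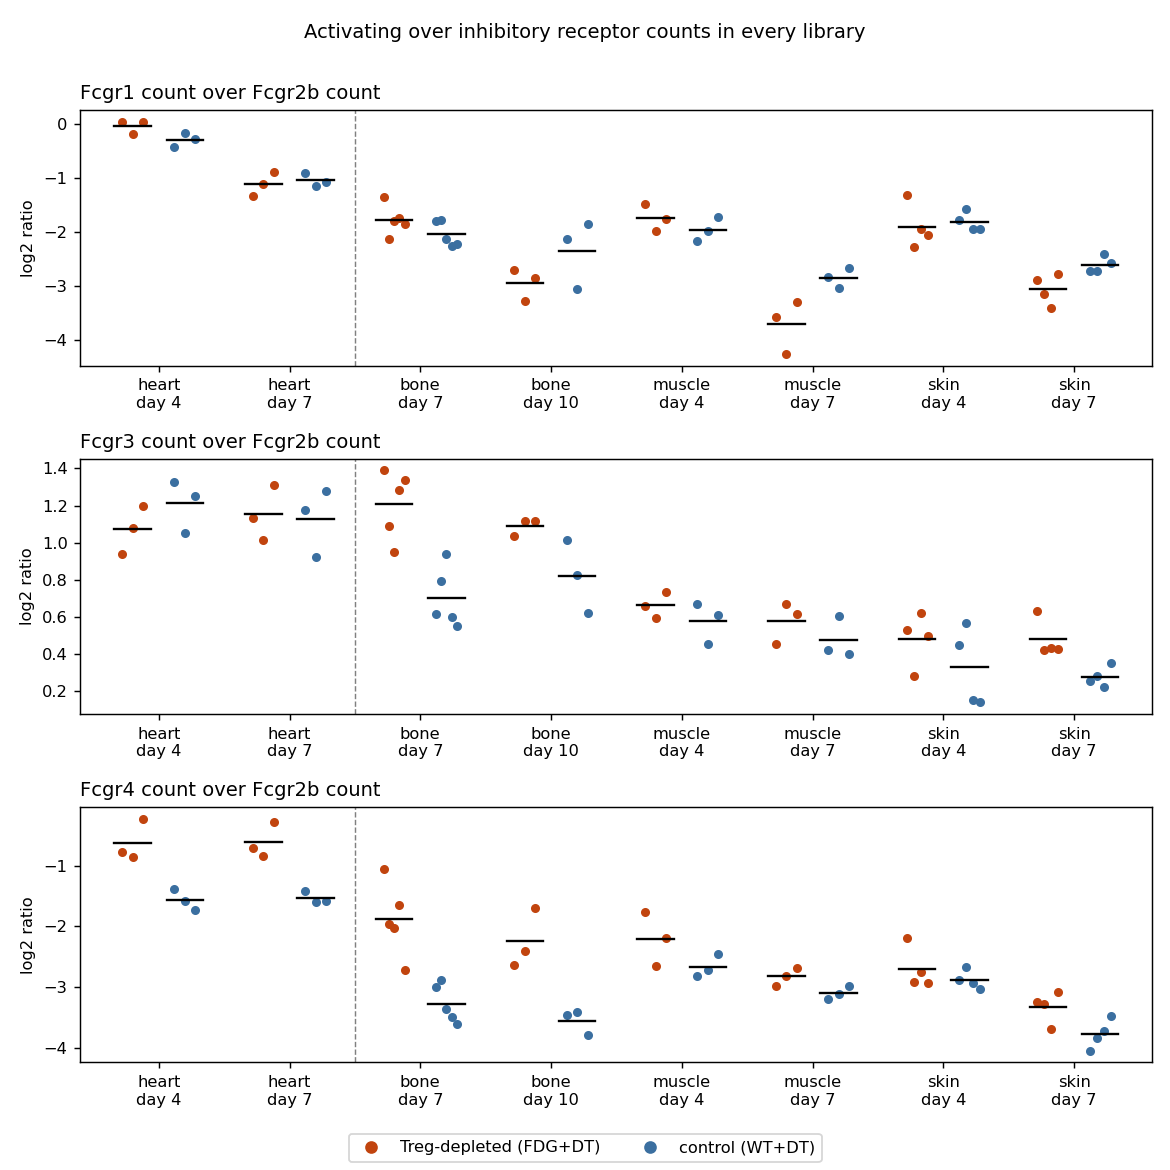
Log2 ratio of the counts of each activating receptor gene to those of Fcgr2b in every library, by tissue and day, with Treg-depleted libraries left of control libraries and a bar at each group mean. The Fcgr4 ratio in bone at day 7 is at -2.72 to -1.06 in depleted and -3.61 to -2.89 in control libraries, while the Fcgr1 ratio in muscle at day 7 is lower in depleted libraries.

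Between days, Fcgr1 was lower at the later day in 6 of 8 comparisons, and its fitted change was negative in every tissue and arm. In muscle it had 60.2, 33.1 and 60.4 CPM at day 7, against 176, 149 and 198 CPM at day 4, in depleted libraries, a change of -1.75 (SE 0.19, edgeR adjusted p = 5.29e-06). In control muscle it had 73.9, 66.4 and 90.4 CPM at day 7, against 166, 185 and 194 CPM at day 4, a change of -1.24 (SE 0.19, edgeR adjusted p = 0.000527). In skin the change was -0.94 (SE 0.15, edgeR adjusted p = 0.000857) in depleted and -0.78 (SE 0.15, edgeR adjusted p = 0.00544) in control cells, and the days did not overlap in either arm. In heart it was -0.58 (SE 0.12, edgeR adjusted p = 0.00156) in depleted and -0.26 (SE 0.12, edgeR adjusted p = 0.108) in control cells. In bone between days 10 and 7 it was -0.87 (SE 0.25, edgeR adjusted p = 0.024) in depleted and -0.45 (SE 0.24, edgeR adjusted p = 0.545) in control cells, and the depleted call was lost without day 10 replicate 2 (-0.74, adjusted p = 0.0963) or 3 (-0.89, adjusted p = 0.0924).

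Markers of other cells differed between the days as well. In depleted muscle, summed fibroblast and mural cell markers were 904 to 1245 CPM at day 7 and 92.0 to 122 CPM at day 4, with 7 of 8 tested markers higher. T and NK cell markers there were 62.5 to 80.0 CPM at day 7 and 13.501 to 30.578 CPM at day 4, with 6 of 8 higher and 1 lower, while macrophage markers were 11046 to 11686 CPM at day 7 and 13732 to 18284 CPM at day 4, with 2 of 12 higher and 6 lower. Neutrophil markers there were 1113 to 2933 CPM at day 7 and 217 to 254 CPM at day 4. Of 11 tested, 4 were higher and 2 lower, against 0 and 1 in control muscle. Mast cell, basophil and eosinophil markers were 188 to 395 CPM at day 7 and 13.7 to 22.6 CPM at day 4, with 3 of 5 higher. None of these sums in depleted muscle overlapped between the days. In control muscle, fibroblast and mural cell markers were 1072 to 1156 CPM at day 7 and 165 to 270.2 CPM at day 4, with 6 of 8 higher, T and NK cell markers were 63.9 to 90.0 CPM at day 7 and 13.8 to 18.7 CPM at day 4, with 7 of 8 higher, and 2 of 12 macrophage markers were lower. In depleted skin 2 of 7 fibroblast and mural cell markers were higher and 1 of 12 macrophage markers lower, and in control skin 1 of 7 and 1 of 12. In heart 5 of 6 fibroblast and mural cell markers were higher in depleted cells and 3 of 6 in control cells. Of 12 neutrophil markers there, 3 were higher and 4 lower in depleted cells and 11 lower in control cells. Of 12 macrophage markers, 4 were higher and 3 lower in depleted heart, with a median change of 0.1. In control heart 6 were higher and 2 lower, with a median change of 0.4. In depleted bone 2 of 7 fibroblast and mural cell markers were higher at day 10, with sums of 1694 to 2084 CPM at day 10 and 123 to 1369 CPM at day 7. The part of these markers in the changes of the receptor genes between days was not tested.

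Fcgr4 was lower at the later day in muscle of both arms and in control skin. In control skin it had 35.3, 29.3, 41.9 and 54.6 CPM at day 7, against 66.2, 77.6, 71.9 and 78.2 CPM at day 4, a change of -0.87 (SE 0.16, edgeR adjusted p = 0.00417). In depleted skin the change was -0.41 (SE 0.15) and did not pass (edgeR adjusted p = 0.189). In muscle it was -0.48 (SE 0.16, edgeR adjusted p = 0.0375) in depleted and -0.79 (SE 0.16, edgeR adjusted p = 0.00424) in control cells. The depleted call in muscle was lost without any of 5 libraries, day 4 replicate 1 or 3 or day 7 replicate 1, 2 or 3, with a change of -0.50 to -0.37 and an adjusted p of 0.0705 to 0.172. In heart the Fcgr4 change was 0.46 (SE 0.19, edgeR adjusted p = 0.088) in depleted and 0.51 (SE 0.19, edgeR adjusted p = 0.0598) in control cells, and neither passed, although both did with no filter on low counts (0.00341 and 0.000289), and the control change did in DESeq2 (0.0486). In depleted muscle the Fcer1g change was -0.45 (SE 0.16, edgeR adjusted p = 0.0531), which passed with no filter (0.00784) and in DESeq2 (0.041). In control muscle the Fcgr3 change was -0.46 (SE 0.14, edgeR adjusted p = 0.0581), which passed with no filter (0.0156) and in DESeq2 (0.0218).

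Fcgr2b in both arms and Fcgr3 in the depleted arm were higher at day 7 than at day 4 in the heart. In depleted heart Fcgr3 changed by 0.58 (SE 0.18, edgeR adjusted p = 0.0203) and Fcgr2b by 0.52 (SE 0.16, edgeR adjusted p = 0.0228), and in control heart Fcgr2b changed by 0.49 (SE 0.16, edgeR adjusted p = 0.0271). These calls were fragile: without depleted day 7 library FDG1, whose Fcgr3 level of 2260.1 CPM was the highest, they were 0.36 (adjusted p = 0.133) and 0.30 (adjusted p = 0.165) in depleted heart. Both were also lost without depleted day 4 library F1 (0.109 for Fcgr3 and 0.0943 for Fcgr2b) or F2 (0.0606 and 0.0657), and the Fcgr2b change in depleted heart without FDG2 (0.0598). The Fcgr2b change in control heart was lost without day 7 library WT3 (0.0818) or WT4 (0.0651) or day 4 library W3 (0.112) or W4 (0.0906).

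By count, 2 members were higher and 1 lower at day 7 in depleted heart, where 13.7% of all genes were called higher and 13.7% lower, and 1 was higher in control heart (15% of genes higher, 16.9% lower). In depleted bone 1 was lower at day 10 (7.13% of genes higher, 5.04% lower). In control bone 0 were called (0.0393% of genes higher, 0% lower), Fcer1g alone had an unadjusted p below 0.05, and DESeq2 also called no member. In muscle 2 members were lower in depleted cells (10.7% of genes higher, 8.72% lower) and 2 in control cells (4.49% higher, 2.75% lower). In skin 1 was lower in depleted cells (1.36% of genes higher, 1.25% lower) and 2 in control cells (1.42% higher, 0.848% lower). The depletion and day comparisons share libraries. The difference of the depletion effect between the days was tested directly, and edgeR called none of the 5 members in any of the 4 tissues, where it called 4.09% of genes in heart, 0% in bone (where DESeq2 called 223 genes but no member), 2.41% in muscle and 0.848% in skin. At an unadjusted p below 0.05 it held for Fcgr3 (0.53, SE 0.20) and Fcgr2b (0.52, SE 0.19) in muscle and for Fcgr4 (0.46, SE 0.22) in skin. For Fcgr4 in heart the difference was -0.04, with a 95% interval of -0.58 to 0.49.

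**Figure D4:**
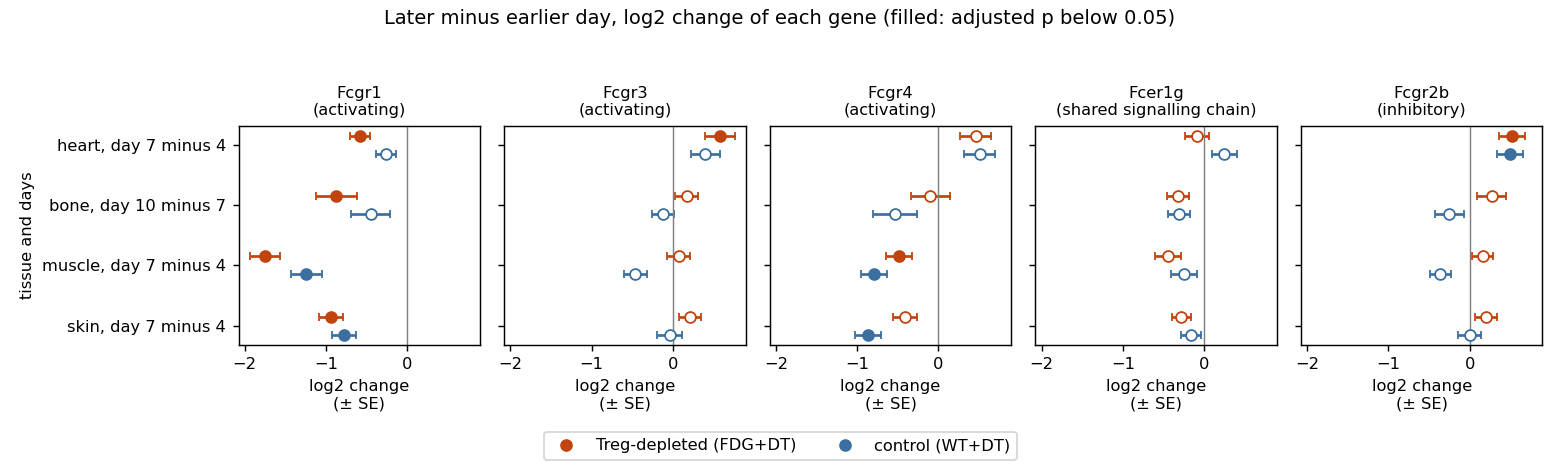
Log2 change of the later over the earlier day for each gene, in Treg-depleted cells (upper point of each pair) and control cells (lower point), with bars of 1 SE and filled points where the edgeR adjusted p was below 0.05. Fcgr1 lies left of 0 in all 8 comparisons, down to -1.75 in depleted muscle, while Fcgr4 lies left of 0 in bone, muscle and skin and right of it in heart.

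Tissues were compared within the table that holds bone, muscle and skin. In control cells at day 7, Fcgr1 had 67.9 ± 13.7 CPM in bone, 76.9 ± 12.3 CPM in muscle and 89.6 ± 18.8 CPM in skin, Fcgr3 had 453 ± 84.1, 766 ± 58.7 and 658 ± 112 CPM, and Fcgr4 had 28.7 ± 5.61, 64.4 ± 7.63 and 40.3 ± 10.9 CPM, in the same order of tissues (SD, n = 5, 3 and 4). Fcer1g had 2007 ± 371 CPM in bone, 2260 ± 403 CPM in muscle and 2079 ± 294 CPM in skin, and Fcgr2b had 283 ± 70.8, 550 ± 24.2 and 542 ± 84.2 CPM. Bone thus had the lowest mean of each gene, and muscle the highest of each except Fcgr1. Bone was lower than muscle for Fcgr3 (-0.76, SE 0.14, edgeR adjusted p = 0.000104), Fcgr4 (-1.16, SE 0.20, edgeR adjusted p = 3.4e-05) and Fcgr2b (-0.96, SE 0.16, edgeR adjusted p = 1.84e-05), 3 of 5 members against 7.32% of genes called lower and 6.28% higher. Bone was lower than skin for Fcgr3 (-0.54, SE 0.13, edgeR adjusted p = 0.0015) and Fcgr2b (-0.94, SE 0.15, edgeR adjusted p = 3.64e-06), 2 of 5 against 14.1% of genes lower and 11.5% higher. Muscle and skin differed only in Fcgr4 at day 7 (0.68 higher in muscle, SE 0.20, edgeR adjusted p = 0.0224; 5.17% of genes higher, 6.76% lower) and in Fcgr3 (0.64, SE 0.15, edgeR adjusted p = 0.00202) and Fcgr4 (0.61, SE 0.20, edgeR adjusted p = 0.0359) at day 4, 2 of 5 against 5.51% of genes higher and 6.77% lower. The muscle and skin calls for Fcgr4 were lost without most of the libraries compared: at day 7 without muscle replicate 2 or 3 or skin replicate 1 or 2 (adjusted p = 0.0543 to 0.116), and at day 4 without muscle replicate 1, 2 or 3 or skin replicate 1, 2 or 3 (0.0541 to 0.119). The other pairs of tissues did not pass. Cell markers differed between these tissues as well. In control libraries at day 7, neutrophil markers summed to 5858 to 13690 CPM in bone and 198 to 243 CPM in muscle. In skin they summed to 1118 to 1930.1 CPM. Macrophage markers summed to 13432 to 24484 CPM in bone, 13993 to 18035 CPM in muscle and 10641 to 15513 CPM in skin. Their part in the differences between tissues was not tested.

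The depletion effect itself differed between tissues for the inhibitory receptor. At day 7 the Fcgr2b change was 0.97 lower on the log2 scale in bone than in muscle (difference -0.97, SE 0.23, edgeR adjusted p = 0.00408) and lower in bone than in skin (difference -1.18, SE 0.21, edgeR adjusted p = 0.000137). Fcgr3 likewise differed between bone and skin (difference -0.87, SE 0.18, edgeR adjusted p = 0.00115). These were 1 of 5 members for bone against muscle, where 5.19% of genes were called lower and 3.09% higher, and 2 of 5 for bone against skin, where 5.58% were lower and 3.79% higher. Between muscle and skin no member was called by edgeR or DESeq2 at day 7 (2.26% of genes higher, 0.516% lower) or at day 4 (0.16% higher, 0.105% lower). No member at day 7 had an unadjusted p below 0.05, and at day 4 Fcgr3 (-0.63, SE 0.21) and Fcgr2b (-0.56, SE 0.24) did. The Fcgr4 effect in bone differed from that in muscle by 0.23, with a 95% interval of -0.32 to 0.77, and from that in skin by -0.15, with an interval of -0.66 to 0.36.

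Genes of the Fc receptor pathway outside the family were followed in 7 lists. Among 12 other Fc receptors, Fcer1a and Ms4a2, which build the IgE receptor of mast cells and basophils together with the gamma chain, were higher in depleted bone and skin at both days. Fcer1a averaged 22.6 ± 22.2 CPM in depleted and 2.26 ± 1.47 CPM in control bone at day 7 (SD, n = 5 each; log2 change 3.24, edgeR adjusted p = 0.00109). Fcgrt, the neonatal Fc receptor, was lower in depleted bone at both days, at 41.7 ± 4.86 CPM against 128 ± 19.9 CPM in control at day 7 (SD, n = 5 each; -1.63, edgeR adjusted p = 1.13e-06), and in depleted skin at day 4 (-0.67, edgeR adjusted p = 0.0306). In depleted muscle at day 7 Fcrl1, an Fc receptor-like protein of B cells, was lower (-2.50, edgeR adjusted p = 0.0026). The list had 2 higher and 1 lower of 6 tested members in bone at each day, 2 and 1 of 5 in skin at day 4, 2 and 0 of 5 in skin at day 7 and 0 and 1 of 3 in muscle at day 7, and none in the other settings. Of all genes, 11% were higher and 12.6% lower in bone at day 7, and 8.95% and 8.22% at day 10. In muscle at day 7 the shares were 4.67% and 3.92%. In skin they were 2.12% and 1.45% at day 4 and 2.95% and 3.27% at day 7. Of the 10 immunoglobulin and pentraxin ligands, only 2 were tested in each heart, muscle and skin setting and 5 in each bone setting. Among those tested, only Ighm was called in any setting, lower in depleted muscle at day 7 (-1.27, edgeR adjusted p = 0.000571). Summed mast cell, basophil and eosinophil markers, which include Fcer1a and Ms4a2, were 770.3 to 5275 CPM in depleted and 266 to 680.0 CPM in control bone at day 7, and their part in the result was not tested.

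Other receptors that pair with the gamma chain moved in both directions. Tarm1, a receptor of neutrophils and activated myeloid cells, was higher in depleted cells in 6 of 8 settings, by 1.29 to 2.85, for instance at 95.2 ± 15.6 CPM in depleted and 17.9 ± 3.83 CPM in control skin at day 7 (SD, n = 4 each; 2.42, edgeR adjusted p = 1.99e-08). The C-type lectins Clec4d and Clec4n, which recognise fungal and mycobacterial glycans, were lower in depleted bone at day 7 (-3.02 and -2.09, edgeR adjusted p = 3.92e-07 and 5.19e-06) and in depleted muscle at day 7 (-1.50 and -1.72, edgeR adjusted p = 0.00023 and 0.000198). Clec4d was also lower in depleted heart at day 7 (-0.66). Clec4e was higher in depleted heart at day 7 (0.61) and lower in depleted skin at day 7 (-1.06), and Lilra6 was higher in depleted muscle at day 7 (1.60) and skin at day 4 (0.65) and lower in depleted skin at day 7 (-0.80). Cd300ld was lower in depleted bone at day 10 (-1.32) and skin at day 4 (-0.76), and Oscar, an osteoclast receptor, averaged 0.106 CPM in depleted and 7.72 CPM in control bone at day 10. Of the tested genes of this list, 1 was higher and 6 lower of 10 in bone at day 7, 1 and 4 of 10 in bone at day 10, 2 and 4 of 9 in muscle at day 7, 3 and 2 of 10 in skin at day 4, 1 and 2 of 10 in skin at day 7 and 2 and 1 of 8 in heart at day 7. None passed in heart or muscle at day 4. Of all genes, 11% were higher and 12.6% lower in bone at day 7, and 8.95% and 8.22% at day 10. In muscle at day 7 the shares were 4.67% and 3.92%, and in heart at day 7 they were 1.58% and 1.56%. In skin they were 2.12% and 1.45% at day 4 and 2.95% and 3.27% at day 7. Pira6 and Pira11 were matched in neither table.

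The signalling genes below the receptors were called in both directions. Syk, named here for its role after its values were seen, was called in heart at day 4 alone, at 59.8 ± 3.42 CPM in depleted libraries and 83.7 ± 10.7 CPM in control libraries (SD, n = 3 each; -0.49, edgeR adjusted p = 0.0324). Of 26 activating signalling genes, 2 were higher and 3 lower in heart at day 4, against 4.25% of all genes higher and 6.85% lower. In bone 2 were higher and 5 lower at day 7 against 11% and 12.6% of all genes, and 0 and 2 at day 10 against 8.95% and 8.22%. In muscle at day 7, 3 were higher and 2 lower against 4.67% and 3.92%. Of 25 tested in skin, 1 was higher and 1 lower at day 4 against 2.12% and 1.45% of all genes, and 1 and 1 at day 7 against 2.95% and 3.27%. None was called in heart at day 7 or muscle at day 4, and their median change over the 8 settings lay between -0.13 and 0.14. The adaptor Blnk was lower in depleted bone at day 7 (-2.50, edgeR adjusted p = 7.39e-06) and skin at day 4 (-1.37, edgeR adjusted p = 0.0179), and the kinase Fgr was lower in depleted bone at day 10 (-0.80, edgeR adjusted p = 0.00102). Of 12 inhibitory signalling genes, 4 were higher and 2 lower in bone at day 7, 1 and 1 in bone at day 10, 1 and 0 in muscle at day 7 and 1 and 1 in skin at day 7, to be read against the same shares of all genes. The adaptor Dok2 was lower in depleted bone at day 7 (-1.26, edgeR adjusted p = 0.000846) and higher in depleted skin at day 7 (1.47, edgeR adjusted p = 6.65e-06), whereas the ubiquitin ligase Cbl was higher in depleted bone at day 7 (0.72, edgeR adjusted p = 0.00115). Inpp5d, the main phosphatase of Fcgr2b and likewise named for its role, was called in none of the 8 settings.

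Genes induced by interferon gamma were called higher in 7 of 8 settings. Of the tested genes of this list, 6 of 13 were higher in heart at day 4, 2 of 13 at day 7, 10 of 13 in bone at day 7, 4 of 13 at day 10, where Ciita was lower, 6 of 13 in muscle at day 7, 9 of 14 in skin at day 4 and 10 of 14 at day 7, and none of 13 passed in muscle at day 4. Of all genes, 4.25% and 1.58% were higher in heart at days 4 and 7. In bone 11% and 8.95% were higher at days 7 and 10, and 12.6% and 8.22% lower. In muscle 0.0542% and 4.67% were higher at days 4 and 7, and in skin 2.12% and 2.95%. Gbp2, an interferon-induced GTPase, averaged 112 ± 42.1 CPM in depleted and 15.3 ± 1.97 CPM in control skin at day 7 (SD, n = 4 each; 2.88, edgeR adjusted p = 2.22e-07). The median change of the list was between 0.50 and 1.61 in the 8 settings. Markers of T and NK cells, which secrete interferon gamma, moved with it in bone at day 7, where 9 of 10 were higher and their sum was 183 to 383 CPM in depleted libraries and 81.2 to 127 CPM in control libraries. In heart at day 4, 2 of 6 were higher, at 27.6 to 105 CPM in depleted and 6.98 to 13.6 CPM in control libraries, and in skin at day 4, 2 of 7 were higher, at 27.0 to 44.4 CPM in depleted and 11.6 to 21.0 CPM in control libraries. Of 10 tested in bone at day 10, 2 were higher, and 1 of 6 in heart and 1 of 7 in skin at day 7, whereas in muscle at day 7 none of 8 was higher and 1 was lower. Their part in the result was not tested. Of 12 genes induced by interleukin 4, 10 were higher in muscle at day 7, 9 in skin at day 7, 6 in skin at day 4, 5 in heart at day 7, 1 in heart at day 4, 0 in muscle at day 4 and 1 in bone at each day, where Il4ra was lower. These counts are to be read against the same shares of all genes, which in bone were 11% and 8.95% higher. Chil3 averaged 1691 ± 153 CPM in depleted and 45.8 ± 12 CPM in control muscle at day 7 (SD, n = 3 each; 5.22, edgeR adjusted p = 4.78e-09). In that setting Fcgr4 and Fcgr2b had the changes of 0.51 and 0.24 given above, neither of which passed.

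The genes most like each member were named over the 44 libraries of bone, muscle and skin, as a description, since tissues and arms are shared by these points. The comparison covered 9096 genes, and likeness is the Pearson correlation of log2 CPM. Fcgr4 was most like Il18bp, the binding protein of interleukin 18 (r = 0.887), H2-T23, a non-classical MHC class I gene (r = 0.853), and B2m, the light chain of MHC class I (r = 0.841), and over the 12 heart libraries these values were 0.969, 0.866 and 0.751. Fcgr1 was most like Ms4a6d (r = 0.927), Aif1 (r = 0.905) and Ifi204 (r = 0.903), with 0.836, 0.353 and 0.952 in heart. Fcgr3 and Fcgr2b were most like each other (r = 0.947, and 0.917 in heart), genes whose transcripts share sequence. Next to Fcgr3 stood Ccl8 (0.928) and H2-D1 (0.893), and next to Fcgr2b stood the mannose receptor Mrc1 (0.935) and Ccl8 (0.929). Fcer1g was most like Lpxn (0.917), Npc2 (0.916) and Aif1 (0.912), with 0.135, 0.477 and 0.665 in heart. Among the members themselves, Fcgr1 and Fcgr3 had r = 0.638 over the 44 libraries and -0.306 over the 12 heart libraries.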

How the data were processed

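Sorted monocytes and macrophages were profiled by 3′ RNA sequencing with molecular identifiers, per the labels' protocols. Whether identifiers were collapsed is not given in the sources used here, so counts may include PCR copies. The authors deposited raw counts per gene for the 12 heart libraries and expected counts, 19.4% of non-zero values not whole at a tolerance of 0.01, for the 44 others. Per the submitters' processing notes, STAR, Salmon, featureCounts and limma were used with GRCm38 for heart, and STAR, featureCounts and limma with GRCm38 and GRCm39 for the rest. Which build belongs to which step is not stated.

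Expected counts were rounded. Each tissue had 1 fit of its 4 groups, and tissues were compared in 1 fit of 12 groups, with edgeR 4.0.16 (TMM, filterByExpr, robust quasi-likelihood F test, Benjamini-Hochberg threshold 0.05) in R 4.3.3, over 11339 genes in heart, 12709 in bone, 12907 in muscle, 12616 in skin and 14340 in the shared fit. The SE is the log2 change divided by the square root of F. Replicates differed by more than independent counts would in all 74 pairs (chi-square per degree of freedom 5.47 to 28.8). PCR copies, if not collapsed, would also raise this value. Fits were tested on simulated data.

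Named genes were the 5 members, up to 2 called genes per list, direction and depletion comparison with the largest change, and the 3 genes most like each member. Similarity used genes with a mean of at least 5 CPM and a prior count of 2. The members and lists were chosen with earlier results of these data known. Alternatives were RLE normalization, no filter, DESeq2 1.42.0, a replicate block, leaving out each library, an Rn18s-rs5 covariate, only the compared groups and 2 added to counts in ratios.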

Additional observations from a re-analysis of the deposited data

Results flagged for a closer look

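Fcgr3 in depleted bone at day 7 was flagged because replicate 1, at 329 CPM, stood apart from the other 4 libraries at 399 to 413 CPM. Fcgr2b in depleted skin at day 7 was flagged because replicate 4, at 610.1 CPM, stood apart from the other 3 libraries at 777 to 807 CPM. Dixon's test was applied to 30 groups of 4 or 5 libraries, and chance flags about 1 in 20 groups. Without that skin library the Fcgr2b change in skin at day 7 was 0.56 and passed the threshold (edgeR adjusted p = 0.0321).

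The depletion effect on Fcgr2b at day 7 was flagged because it differed between bone and muscle (-0.97) and between bone and skin (-1.18) in the test of the difference itself. The effect on Fcgr3 was flagged for the same reason between bone and skin (-0.87). These 3 differences passed the threshold with each library of the compared groups left out in turn. Neutrophil markers, Rn18s-rs5 and macrophage markers moved with depletion in bone, as given above, and their part in these differences was not tested.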

How the results depend on the processing

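Over the member changes in all comparisons, 138 of 140 kept direction and side of the threshold with RLE normalization, 130 of 140 with no filter, 134 of 140 in DESeq2, 25 of 30 with the Rn18s-rs5 covariate, 39 of 40 with only the compared groups and 1758 of 1865 with libraries left out. All 32 ratio differences moved by less than the replicate spread with 2 added to counts. The number of members called changed by more than 1.5 times as follows, and the cause was not tested. In control heart between days it was 3 with no filter and 2 in DESeq2, against 1. With the covariate it was 0 in bone at day 10, against 3, while the fitted changes were -0.77 for Fcgr1, 1.21 for Fcgr4 and -0.65 for Fcer1g, against -0.89, 1.15 and -0.48. In muscle at day 7 it was 1 with RLE, 2 with no filter and 1 in DESeq2, against 0, and in depleted muscle between days 1 with RLE, against 2. For the depletion effect in bone against muscle it was 2 in DESeq2, against 1. Smaller moves were 3 against 2 in heart at day 4 (no filter), in skin at day 7 (no filter, DESeq2) and between days in both arms of muscle (no filter, DESeq2), 4 against 3 in depleted heart between days (no filter), and in bone at day 7 2 with the covariate and 4 with only the compared groups, against 3. Directions reversed for Fcgr2b in the day difference of the heart effect (-0.01 with no filter) and Fcgr3 in bone at day 10 (-0.06 with the covariate), neither of them called.

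The replicate numbers were not taken to pair the libraries: 2 of 22 same-numbered pairs had r over 0.1 (range -0.121 to 0.141). Same-numbered pairs were not compared with other pairs, so a weak pairing is not excluded. With a replicate block, 108 of 115 member results were unchanged in call and direction. The block gave 2 members called in muscle at day 7 (Fcgr1, adjusted p = 0.0284, and Fcgr4, 0.0447), against 0 without it. It lost Fcer1g in bone at day 10 (-0.48, adjusted p = 0.052) and gained Fcer1g between days in depleted muscle (-0.45, adjusted p = 0.0246). It gave 0 for control muscle against skin at day 7, against 1, and 0 at day 4, against 2. With the block, gene counts were 1008 for control bone against muscle (1949 without), 1628 for bone against skin (3673), 910 and 882 for muscle against skin at days 7 and 4 (1711 and 1761) and 36 for the day difference in bone (0). No paired analysis was possible for heart because the heart columns lack label replicate numbers.

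With libraries left out in turn, members called ranged over 1 to 2 in heart at day 4, 0 to 3 in bone at day 10, 0 to 1 in muscle at day 7 and 0 to 1 in skin at day 4. Between days they ranged over 1 to 4 in depleted heart, 0 to 3 in control heart, 0 to 1 in depleted bone and 1 to 3 in depleted muscle. Between tissues they ranged over 2 to 4 for control bone against skin, 0 to 1 and 1 to 2 for muscle against skin at days 7 and 4, and 1 to 2 for the depletion effect in bone against muscle. Directions reversed only for changes that were not called. For Fcer1g the depletion change ranged over -0.08 to 0.09 in heart at day 7, -0.01 to 0.19 and -0.25 to 0.02 in muscle at days 4 and 7 and -0.06 to 0.09 in skin at day 7. Its day change ranged over -0.15 to 0.01 in depleted heart, and the day difference in bone over -0.09 to 0.06. Its tissue difference ranged over -0.13 to 0.06 for control bone against skin and -0.03 to 0.22 for muscle against skin at day 7, and the depletion effect in muscle against skin over -0.25 to 0.02 at day 7 and -0.16 to 0.04 at day 4. For Fcgr1 the ranges were -0.16 to 0.04 in muscle at day 4, -0.11 to 0.09 in skin at day 7 and -0.11 to 0.26 for the effect in bone against muscle. For Fcgr2b they were -0.09 to 0.07 for control muscle against skin at day 7 and -0.19 to 0.24 for the day difference in heart. For Fcgr3 they were -0.09 to 0.18 in heart at day 4, -0.04 to 0.33 for the day difference in heart, and -0.03 to 0.23 and -0.13 to 0.06 between days in depleted muscle and control skin. For Fcgr4 they were -0.40 to 0.07 between days in depleted bone, -0.32 to 0.02 for the effect in bone against skin and -0.23 to 0.23 for the day difference in heart.

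Counts of all genes called moved by over 1.5 times in these cases. With no filter they were 754 in heart at day 7 (356 with the filter), 190 in muscle at day 4 (20), 719 in skin at day 4 (450), 176 between days in control bone (5), 632 and 514 in depleted and control skin (330 and 286), 166, 583 and 319 for the day difference in bone, muscle and skin (0, 311 and 107), and 629 and 224 for the effect in muscle against skin at days 7 and 4 (398 and 38). DESeq2 gave 617 in heart at day 7, 89 in muscle at day 4, 54 and 453 between days in control bone and skin, 223, 495 and 273 for those day differences, and 88 for muscle against skin at day 4. With the covariate they were 1166 and 78 in bone at days 7 and 10 (2994 and 2182) and 419 in muscle at day 7 (1109). Leaving out 1 library gave 2 to 31 genes in muscle at day 4, 124 to 558 in heart at day 7 and 557 to 1675 between days in depleted bone. Groups of 3 libraries limit what can be called, and a change that did not pass is not shown to be absent.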
